A study of Rattus norvegicus with 12 samples.

Results

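The 6 libraries from tunicamycin-treated cells, of 12 in the study, were compared with each other: 3 taken at 8 h and 3 taken at 2 h. They were chosen by the treatment and time in their labels. The cells were rat oligodendrocyte precursor cells in culture, isolated from adult spinal cord, stored frozen and used at no later than passage 6. Such precursors divide and mature into the oligodendrocytes that wrap axons in myelin. Both treated groups received 5 µM tunicamycin, for 2 or 8 h, and both control groups (3 libraries each) received 0 µM for the same times. The labels say that 3 independent experiments gave 4 samples each, and that both times come before the cells die. They do not say whether separate animals stand behind these experiments, so p-values measure only the spread between these libraries.

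Tunicamycin blocks the first step of N-linked protein glycosylation, so that unfolded proteins build up in the endoplasmic reticulum. Cells answer with the unfolded protein response, in which the sensors PERK, IRE1 and ATF6 slow protein synthesis and raise genes for protein folding, degradation and amino acid supply. When the stress persists, the same response can turn towards cell death. The comparison of 8 h with 2 h asks how transcript levels moved on within stressed cells, and it uses no control library.

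Genes carry Ensembl rat IDs, and neither the deposited table nor the reference tables pair these with names. Genes are therefore described by number, size, direction and level, and 4 are given by ID. For the same reason the labelled cell type could not be checked against its markers, and no pathway list has a result here.

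Transcript levels changed widely between 2 and 8 h of tunicamycin, and about equally in both directions. Of 11595 genes tested, 2397 were higher and 2538 lower at 8 h (limma, Benjamini-Hochberg adjusted p under 0.05), which is 20.7% and 21.9% of the genes tested, or 42.6% together. Levels are FPKM, fragments scaled by gene length and library size, and changes are differences of log2(FPKM + 1), which understates the change of low genes. Most changes were moderate. Rises had a median of 0.53 and an interquartile range from 0.36 to 0.86, and falls a median of −0.52 and a range from −0.78 to −0.36. Over all genes tested the median was −0.01. FPKM is relative to the rest of a library, so a change in total RNA per cell is not seen, and fewer cells of a kind cannot be told apart from less RNA per cell.

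Large changes were more often rises over all genes tested, but not at every level. At least 2-fold changes numbered 442 up and 341 down, at least 4-fold changes 70 up and 26 down, and at least 8-fold changes 16 up and 6 down. Of the 2-fold changes, 80 up and 3 down were of genes under 1 FPKM in control at 2 h, which could enter the test through treated libraries, and without them the numbers were 362 and 338. The filter can also favour rises among genes of 1 to 5 FPKM, which made 108 of the 362 and 33 of the 338. Among genes of 20 to 100 FPKM in control at 2 h the order turned, with 87 up and 144 down, and at 100 FPKM or more there were 29 up and 39 down. The smallest changes called were 0.16 up and −0.16 down. The libraries of both times did not overlap in 2396 of the genes that rose and 2537 of those that fell. The same held for 55.3% of all genes tested.

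**Figure D1:**
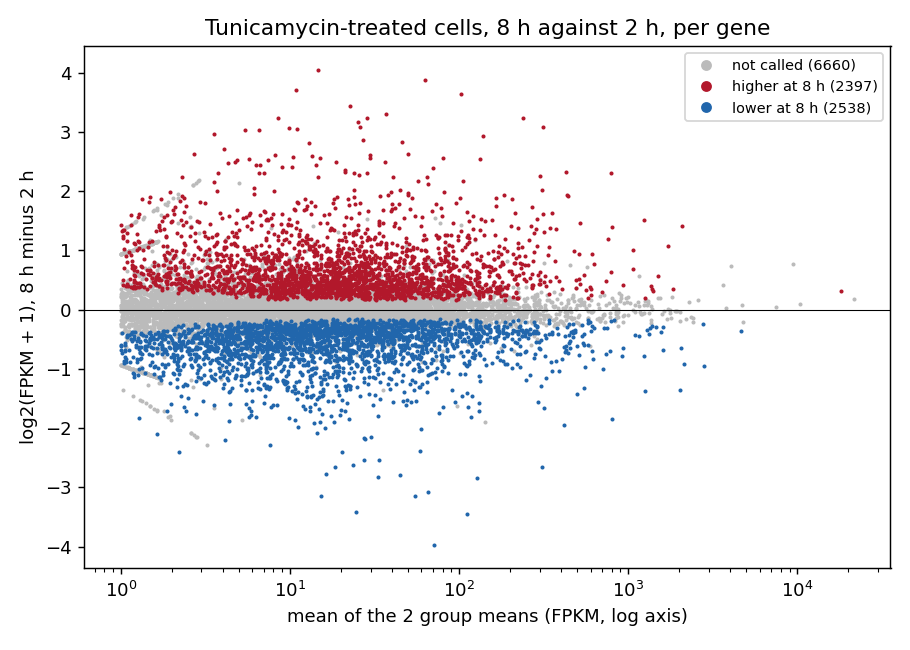
Each point is 1 of 11595 genes, with the mean of the 2 h and 8 h group means in FPKM on a log axis and the difference of log2(FPKM + 1), 8 h minus 2 h, on the other. Colours mark the 2397 genes called higher, the 2538 called lower and the 6660 not called; the cloud is nearly even about 0, and its outer points are more numerous above 0 than below.

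The treated libraries separated by time before any test. The first principal component of the 6 libraries held 59.2% of the variance, with the 2 h libraries at −32.6, −31.3 and −29.7 and the 8 h libraries at 25.2, 35.3 and 33.0. Rank correlation across genes ran from 0.985 to 0.989 among the 2 h libraries, from 0.974 to 0.988 among the 8 h libraries, and from 0.938 to 0.953 between the times. The second component held 15.4% and set 8 h replicate 1, at −32.5, apart from the other 5 libraries, which lay between −2.71 and 18.8. In this library 519 genes exceeded the average of the 2 h libraries 2-fold or more, against 702 and 656 in 8 h replicates 2 and 3. Genes 2-fold or more under that average were about equally many in all of the 8 h libraries, at 504, 509 and 495. Replicate 1 also had the lowest relative depth of the 6, at 72.0% of the deepest, and the part of depth in its position was not tested. Without it 6169 genes were called, 3076 higher and 3093 lower.

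The largest rise was that of ENSRNOG00000018282, a rank that rests on the pseudocount: with 5 FPKM its change was 2.54, below the 3.34 of ENSRNOG00000010210. It stood at 0.824, 0.706 and 0.829 FPKM in the 2 h libraries and at 33.1, 25.05 and 28.0 FPKM in the 8 h libraries. Every library at 8 h was thus far above every library at 2 h, where the gene lay under 1 FPKM. The change was 4.05 ± 0.11 on the log2 scale (SE; limma adjusted p = 8.67e-06). In the controls the gene had 0.684 ± 0.229 FPKM at 2 h and 1.40 ± 0.641 FPKM at 8 h (SD, n = 3 each), so at 2 h treated and control libraries overlapped.

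ENSRNOG00000010210 made the next largest rise. Its levels were 7.35, 7.28 and 6.77 FPKM at 2 h and 132, 105 and 118 FPKM at 8 h. The change was 3.87 ± 0.09 (SE; limma adjusted p = 7.91e-06). The controls held 5.65 ± 0.810 FPKM at 2 h and 7.12 ± 0.747 FPKM at 8 h (SD, n = 3 each). The 3 treated libraries at 2 h lay a little above all controls of that time, of which the highest held 6.29 FPKM. They lay within the 8 h controls, which ran from 6.50 to 7.95 FPKM. Most of both rises therefore came after the 2 h sample.

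ENSRNOG00000019422 made the largest fall, and it came down from a raised level. It stood at 126, 133 and 142 FPKM at 2 h of tunicamycin and at 3.67, 10.2 and 11.2 FPKM at 8 h. The change was −3.97 ± 0.36 (SE; limma adjusted p = 0.000395), and without 8 h replicate 1, the lowest of these values, it was −3.52, so that ENSRNOG00000009550, at −3.54, then ranked first. Control libraries at 2 h held 37.3, 37.1 and 62.3 FPKM, all under the treated libraries of that time. Control libraries at 8 h held 44.2, 144 and 51.9 FPKM, where the high value is replicate 2, a library that stands apart from the other controls. The gene was thus above its 2 h controls early and below all 6 control libraries later.

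ENSRNOG00000009550 fell from a level near that of the controls. Its values were 205, 211 and 199 FPKM at 2 h and 20.1, 16.2 and 17.2 FPKM at 8 h, a change of −3.46 ± 0.09 (SE; limma adjusted p = 8.23e-06). Controls held 194 ± 9.61 FPKM at 2 h and 175 ± 5.90 FPKM at 8 h (SD, n = 3 each). The 8 h treated libraries lay far under every other library, of which the lowest held 169 FPKM.

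**Figure D2:**
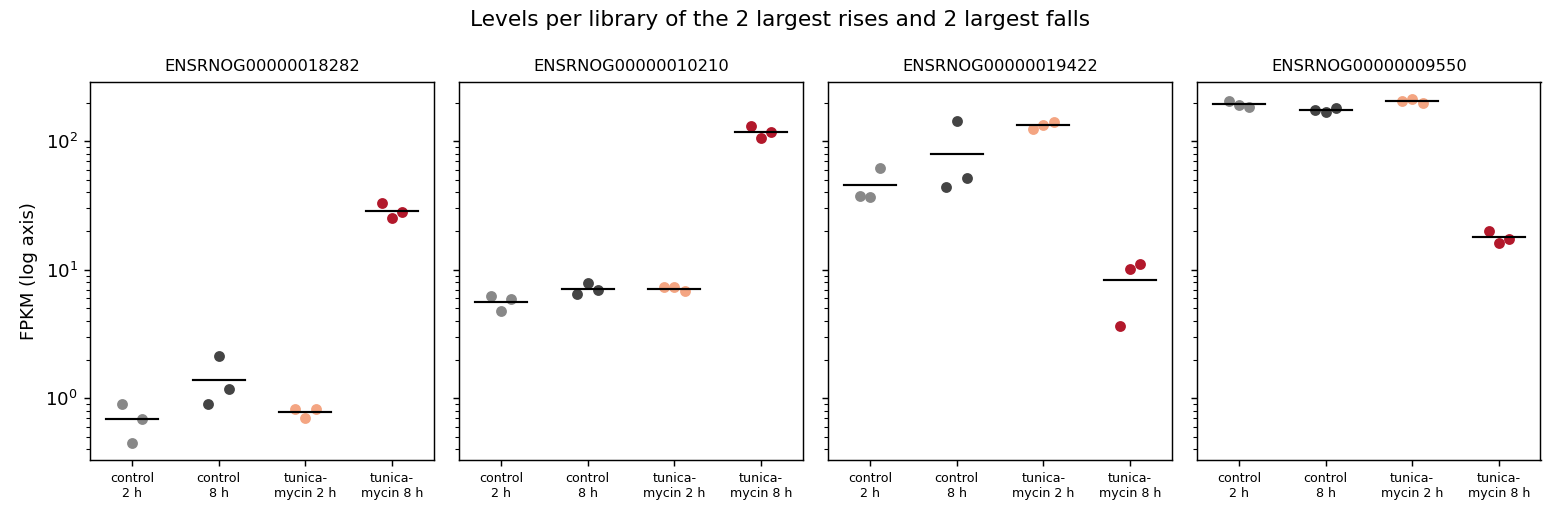
Each panel shows 1 gene, with FPKM on a shared log axis, points for the 12 libraries by group and a line at the mean of each group of 3. The 8 h tunicamycin libraries stand above all others for the 2 genes on the left (25.05 FPKM or more for the first) and below all others for the 2 on the right (20.1 FPKM or less for the last).

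The same shape held among the 10 largest changes each way. The 10 largest rises ran from 3.17 to 4.05 on the log2 scale, from 2 h means of 0.697 to 45.6 FPKM to 8 h means of 16.1 to 433 FPKM. The 10 largest falls ran from −2.78 to −3.97, from 2 h means of 28.3 to 226 FPKM to 8 h means of 2.30 to 30.6 FPKM. All 10 rises ended with their 8 h libraries above all 6 controls, and all 10 falls ended below them. Over all genes tested, 19.5% lay above and 17.3% below at 8 h. These genes were picked for the size of their change, so their place at 8 h is a description. At 2 h, 7 of the 10 rises and 7 of the 10 falls overlapped the controls, a smaller share than the 92.3% of all genes tested. The other 3 rises were already above the controls at 2 h, and the other 3 falls were above them too before they dropped below. Over all genes tested, 5.71% lay above at 2 h.

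Placing the treated levels against the 6 control libraries showed where the genes stood at each time. This is a description, because the treated libraries that select a gene also set its place. Of the 2397 genes that rose, 1481 overlapped the controls at 2 h and lay above all of them at 8 h, and 243 lay above at 2 h and further above at 8 h. A further 639 overlapped the controls at both times. Of the 2538 genes that fell, 1493 overlapped the controls at 2 h and lay below all of them at 8 h, 78 lay below at both times, and 842 overlapped at both times. Over all genes tested, 15.8% overlapped at 2 h and lay above at 8 h, and 15.8% overlapped and then lay below. At both times 60.7% overlapped, 3.67% lay above and 1.10% lay below. The common course of called genes was therefore a level among the controls at 2 h that had left their range by 8 h. Its start was not particular to them: 88.4% of the rises and 92.0% of the falls overlapped the controls at 2 h, against 92.3% of all genes tested.

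A smaller set came down from above the controls. At 2 h, 125 of the genes that fell, or 4.93%, stood above all 6 controls, a share near the 5.71% of all genes tested that did so. By 8 h, 79 of them had come back among the control levels and 44 had passed below all controls. The 79 had a median of 0.30 above the control mean at 2 h and −0.10 at 8 h (log2 scale), and the 44 had medians of 0.27 and −0.46. The 243 genes that went on rising began at a like median, 0.30 above the controls, and reached 0.83. Another 181 genes were above the controls at both times without a call between the times, at medians of 0.32 and 0.44. The call and the place at both times define these sets, so their medians are a description. In the opposite course, 34 of the genes that rose, or 1.42%, lay below all controls at 2 h, as did 1.97% of all genes tested, and 26 of the 34 overlapped the controls at 8 h.

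These counts moved with control 8 h replicate 2, which widens the control range. It had 1019 genes at least 2-fold from the mean of the other control 8 h libraries, where the other 11 libraries had 206 to 397, and the lowest summed FPKM, 588250 against 690766 or more. Without it, 75 genes rather than 44 passed from above to below, 266 rather than 78 lay below at both times, and 167 rather than 842 of the genes that fell overlapped at both times. Of the genes that rose, 247 rather than 639 overlapped at both times. Genes that had come back among the controls from above numbered 71 rather than 79.

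**Figure D3:**
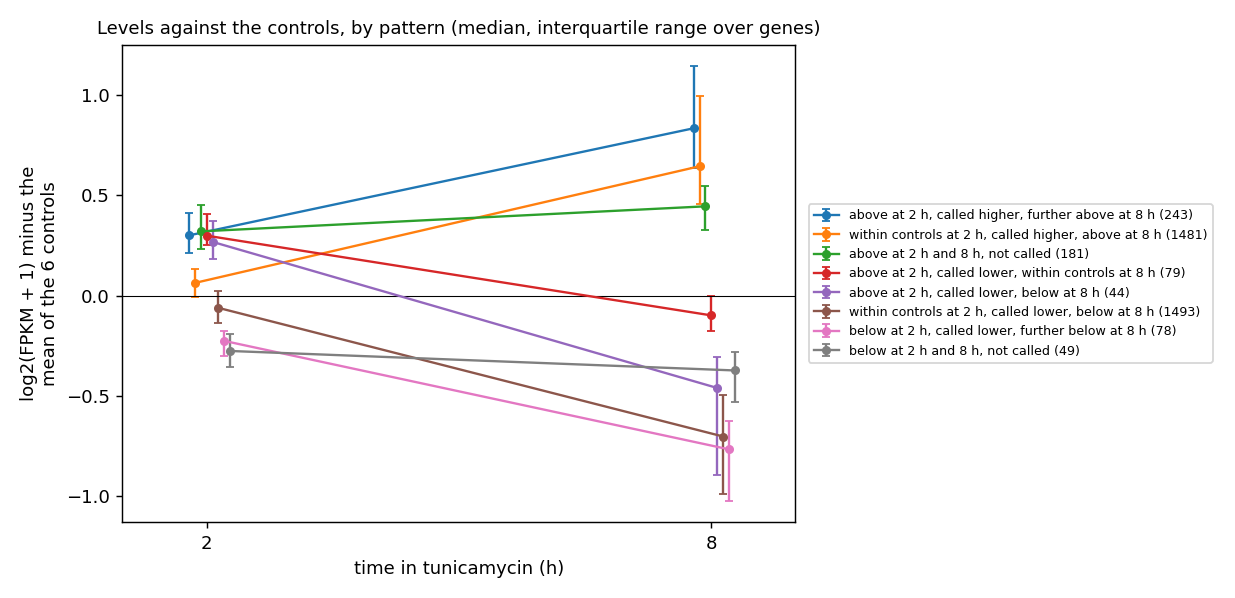
Lines join the median level at 2 and 8 h of tunicamycin, as log2(FPKM + 1) minus the mean of the 6 controls, for 8 patterns with the number of genes in brackets; bars span the interquartile range over genes. Patterns that were above the controls at 2 h began at medians of 0.27 to 0.32 and ended anywhere from −0.46 to 0.83. Genes were sorted into patterns by their call and their place at both times, so the end points follow largely from the sorting.

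The balance of rises and falls changed with the level a gene has without tunicamycin. Each gene was placed by its average FPKM in the 2 h controls, libraries that have no part in the comparison. Among 2464 genes of 1 to 5 FPKM, 18.1% rose and 14.4% fell. Among 3940 genes of 5 to 20 FPKM the shares were 22.7% and 23.0%, and among 3544 genes of 20 to 100 FPKM they were 20.7% and 26.1%. Among 1183 genes of 100 FPKM or more, 16.0% rose and 29.2% fell. Rises were thus 55.6% of the calls at 1 to 5 FPKM, 49.6% at 5 to 20 FPKM and 35.3% at 100 FPKM or more. The filter of 1 FPKM on the treated mean can drop low genes that fell and keep those that rose. It can therefore raise the share at 1 to 5 FPKM. Without the filter that share was 50.5%, and at 100 FPKM or more it was 35.4%. Of the 464 genes under 1 FPKM in control, 134 rose, but such a gene reached the mean of 1 FPKM required for the test through treated libraries, so this share is no result. At least 2-fold falls were 11.3% of the 346 falls at 100 FPKM or more, against 13.4% of all 2538 falls and 9.30% of the 355 falls at 1 to 5 FPKM.

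**Figure D4:**
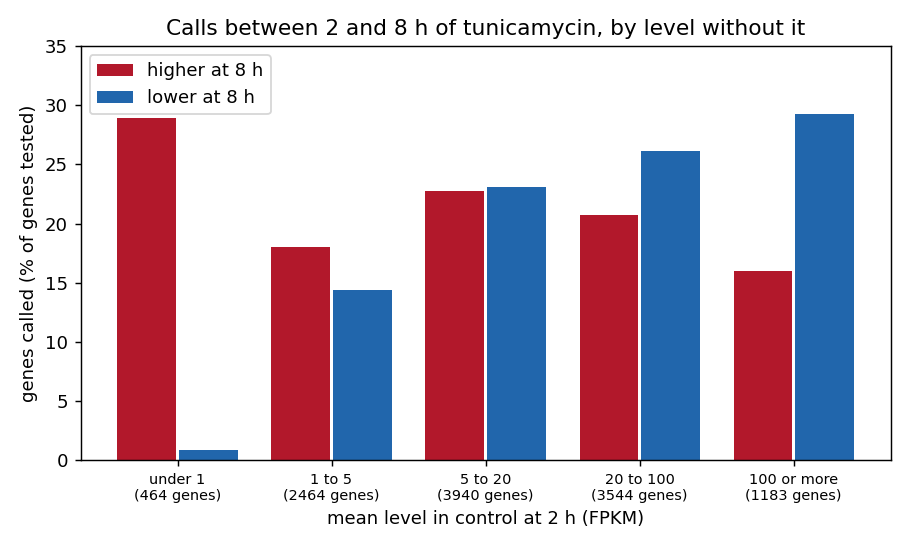
Bars give the percent of genes tested that were called higher or lower at 8 h of tunicamycin, by mean FPKM in control at 2 h, with the number of genes tested under each pair. From 1 FPKM upward the falls grow from 14.4% to 29.2% of genes, while the rises peak at 22.7% in the group of 5 to 20 FPKM. In the group of 1 to 5 FPKM the filter can leave out genes that fell.

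The changes redistributed a sizeable part of the transcript pool. The genes that rose held 15.8, 16.2 and 16.1% of the summed FPKM of all genes tested at 2 h, and 24.2, 24.9 and 25.3% at 8 h. The genes that fell went from 25.3, 26.5 and 26.2% to 17.2, 16.6 and 17.0%. The contrast itself selected these genes, so the shares are a description. In the controls, which had no part in picking them, the genes that rose held 15.4% ± 0.525 at 2 h and 16.6% ± 1.15 at 8 h, and those that fell held 26.1% ± 1.18 and 24.5% ± 1.63 (SD, n = 3 each). At 2 h the treated libraries thus lay within the range of the 6 controls on both measures, 15.0 to 18.0% and 23.2 to 27.1%. The 18.0% is that of control 8 h replicate 2; without it the highest control share of the genes that rose was 16.04%, and treated 2 h replicates 2 and 3 lay just above it, at 16.2 and 16.06%.

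Few genes carried much of the moved FPKM. The summed gain of the genes that rose was 64374 FPKM and the summed loss of those that fell 59483 FPKM. The 10 largest gains made 19.1% of the total gain and the 10 largest losses 18.3% of the total loss. It took 103 of the 2397 rises and 98 of the 2538 falls to reach 50% of each total. Levels were themselves concentrated in few genes. The 10 most abundant genes of each treated library held 11.4 to 14.4% of the summed FPKM of tested genes. The 100 most abundant genes of control at 2 h held 30.7 to 32.6% in the treated libraries. The part of level in the concentration of gains and losses was not tested. The largest single gain was 3811 FPKM and the largest single loss 1791 FPKM.

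Genes that went from near silence to clear expression were few. Over the whole table of 32402 genes, 20 lay under 0.5 FPKM in all of the 2 h libraries and at 2 FPKM or more in all of the 8 h libraries. Their 8 h means ran from 2.23 to 25.9 FPKM, with a median of 4.09, and 11 of the 20 were under 0.5 FPKM in all 6 controls. Only 14 of the 20 were among the genes tested. The rest had been set aside for an exact 0 beside 10 FPKM or more, and such zeros can be failed estimates. Time without tunicamycin gave such genes as well: 12 met the same limits between the control times, and 20 did when control 8 h replicate 2 was left out, so that fewer libraries had to pass. The difference between these counts was not tested.

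Time in culture alone gave no called gene. Control at 8 h against control at 2 h called 0 of 11469 genes (limma on all 12 libraries, smallest adjusted p = 0.65), with 348 at an unadjusted p under 0.05, and the control groups did not overlap in 4.6% of genes. With the 6 control libraries fitted alone the count was 2. The median size of the change was 0.27 in treated and 0.14 in control cells over the same genes, and 0.05 in control without its 8 h replicate 2. At least 2-fold changes, whatever their p, numbered 834 in treated and 144 in control cells, or 104 in control without that library.

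Whether the change in treated cells differed from that in controls was tested directly. It differed for 1693 genes, 14.8% of those tested, 947 upward and 746 downward (limma contrast of the changes, adjusted p under 0.05). Of the genes that rose, 945 were among those differing upward, and of the genes that fell, 736 were among those differing downward. This test shares the treated libraries with the comparison of the times, so the overlap is not separate support. Without control 8 h replicate 2 the difference was called for 2668 genes, 1357 upward and 1311 downward, and without tunicamycin 2 h replicate 3 for 1111.

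All 4 genes given by ID differed in this test. The difference, treated minus control, was 3.56 ± 0.26 for ENSRNOG00000018282 (SE; limma adjusted p = 1.35e-05). It was 3.58 ± 0.16 for ENSRNOG00000010210 (SE; limma adjusted p = 9.70e-07), where the controls changed by 0.29. It was −4.60 ± 0.64 for ENSRNOG00000019422 (SE; limma adjusted p = 0.00089), and −4.08 without control 8 h replicate 2. For ENSRNOG00000009550 it was −3.31 ± 0.13 (SE; limma adjusted p = 6.35e-07), where the controls changed by −0.15. The difference was also called for each of the 10 largest rises and the 10 largest falls, against 14.8% of all genes tested. All of these genes were picked for the size of their treated change, which is a part of the difference. Their calls are therefore not separate support.

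Changes in treated and control cells were weakly related across genes. Over 11469 genes Pearson's r was 0.27 and Spearman's rho 0.34, and both fell without control 8 h replicate 2, to 0.12 and 0.24. The treated and control changes share no library, and genes are not independent replicates. In the controls, the genes that rose under tunicamycin had a median change of 0.03 and those that fell −0.13, against −0.04 over all genes tested. Without control 8 h replicate 2 these medians were 0.01, −0.04 and −0.01.

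**Figure D5:**
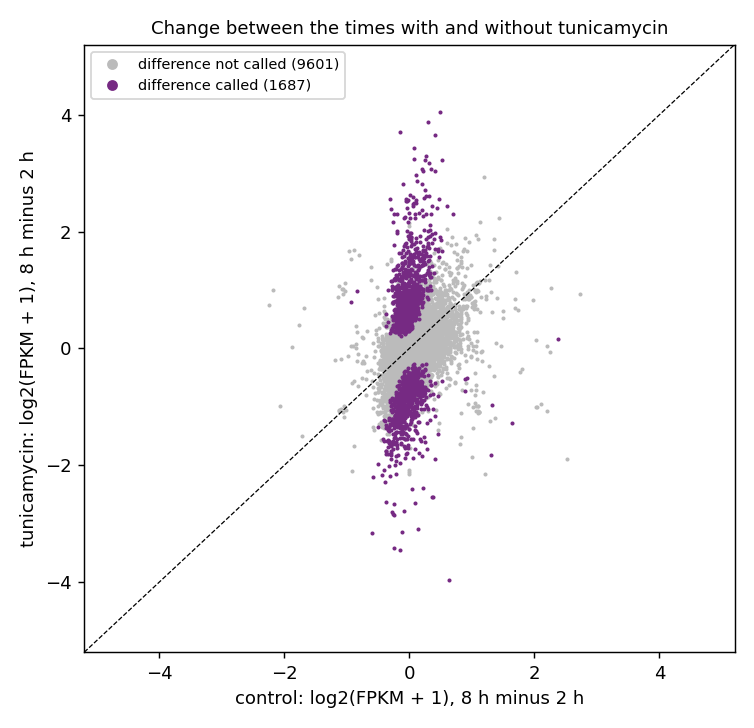
Each of 11288 genes is placed by its change from 2 to 8 h, as a difference of log2(FPKM + 1), in control cells (horizontal) and in treated cells (vertical); the dashed line marks equal change. The 1687 coloured genes, whose difference was called, lie mostly in a tall narrow band, with large treated and small control changes.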

How the data were processed

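The authors deposited 1 table of FPKM values for 32402 genes and 12 libraries. Per the labels' protocols, ribosomal RNA was removed and a stranded library kit was used. The submitters' processing notes list, without roles or order, build rn6, Cuffnorm, Cuffdiff 2.1.1, Cufflinks 2.2.1, TopHat2 2.0.4 and FastQC 0.10.1. Fragment counts were not used here.

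Columns were matched to samples by treatment, time and number. A gene was kept when the 6 treated libraries averaged 1 FPKM or more (11960 genes). Of these, 365 with an exact 0 in 1 library and 10 FPKM or more in another were set aside, since such zeros can be failed estimates. The fit used limma 3.58.1 in R 4.3.3 on log2(FPKM + 1), with 2 group means, a variance trend, 4 residual and 2.28 prior degrees of freedom, and Benjamini-Hochberg adjustment. Control changes and the difference were fitted on 12 libraries (11469 genes, 8 residual degrees of freedom), with the same filter over the 12. A principal component analysis and Spearman correlations used the 11595 tested genes.

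Depth is unknown. Relative depth came from the most common ratio of values under 1 FPKM between libraries; only 31.9% of 17609 ratios came within 0.03 of a whole number, so fragments could not be recovered.

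Genes given by ID are the 2 largest rises and 2 largest falls among called genes whose groups do not overlap, the form the rule takes without symbols. The RefSeq table (GRCr8) has 47357 genes, 0 with an Ensembl ID, so no promoter was matched. The comparison, the lists and the tests were chosen with earlier results of these data known.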

Additional observations from a re-analysis of the deposited data

Results flagged for a closer look

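The change from 2 to 8 h differed between treated and control cells for 1693 genes by the test of the difference itself. The same test was passed by ENSRNOG00000018282 (difference 3.56), ENSRNOG00000010210 (3.58), ENSRNOG00000019422 (−4.60) and ENSRNOG00000009550 (−3.31), all on the log2 scale, treated minus control. The genes given by ID were picked for the size of their treated change, which is a part of this difference, so their calls are not separate support. Groups of 3 libraries are too small for the check for single outlying values.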

How the results depend on the processing

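The count of 4935 genes changed between 8 and 2 h of tunicamycin stayed within 1.5 times under 15 of 16 alternatives. The exception was 8779 with limma array weights, a fit that leaned on tunicamycin 8 h replicate 3 with a weight of 25.2. Leaving out single treated libraries gave 3500 to 6169, and fitting all 12 libraries gave 3569. Rises were 45.9% to 51.5% of calls throughout. With a pseudocount of 5 FPKM, 236 rises and 151 falls reached 2-fold, as the larger pseudocount shrinks folds. With 0.1 FPKM the numbers were 554 and 489, nearer to each other in proportion than the 442 and 341 of the main setting. The 4 genes given by ID kept direction and call in all 16; the highest adjusted p was 0.004611 (limma). The share of rises among calls stayed higher at 1 to 5 FPKM (50.5% or more) than at 100 FPKM or more (39.5% or less) in each alternative. The 50.5% came without a filter on low values. With a filter at 5 FPKM the share at 1 to 5 FPKM was 98.9%. A gene of that control level passes this filter mostly through higher treated levels, so that setting is no check of the balance. For the difference between treated and control cells, leaving out single libraries gave 1111 to 2668 genes, and the other alternatives stayed within 1.5 times of 1693. For control at 8 h against 2 h, leaving out single libraries gave 0 to 4 genes (1 without any 1 of the 2 h controls, 3 without control 8 h replicate 1, 4 without control 8 h replicate 3) and fitting the 6 controls alone gave 2; that fit, the 2-fold counts, the level groups and the control range without 1 library were added after seeing the data.

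The labels do not say whether a replicate number marks an independent experiment. The running numbers in the column names go through all groups of a replicate number before the next. Deviations of same-numbered treated libraries correlated at 0.01, −0.08 and 0.04, and not every library correlated best with its own number. With 3 libraries per group, these values cannot show that the libraries were unpaired. The main fit of the times called 4935 genes and had no block for the replicate number. With the replicate number as a block, 4112 genes changed between the times, 1361 differed between treated and control cells, and 0 changed in control. The median SE of the change was 0.12 at 1 to 5 FPKM and 0.08 at 100 FPKM or more; the part of depth in this was not tested.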

Other observations

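Of the 365 genes set aside for a 0 beside 10 FPKM or more, 287 had zeros at both times. In groups that overlap with these, 95 were listed at 0 in all of the 8 h libraries and 89 in all of the 2 h libraries. The 10 most abundant genes of each treated library held 13.3, 11.6 and 11.4% of the summed FPKM of tested genes at 2 h and 13.3, 14.4 and 13.4% at 8 h, so both times overlapped in this measure. In the controls it ran from 11.3% to 18.4%.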
